A study of Mus musculus with 6 samples.

Results

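Nuclear RNA of 8 genes for PCM1 and for proteins of the nuclear envelope and the centrosome was followed in cardiomyocyte nuclei that had been sorted with an antibody against the PCM1 protein. The 8 genes, Pcm1, Akap6, Akap9, Pcnt, Cdk5rap2, Syne1, Syne2 and Lmna, were taken by symbol from the 54232 genes of the deposited table. Values are normalised reads, the reads of a gene divided by a size factor of its library. All 8 had a mean of at least 10 normalised reads and were among the 16202 genes tested. The libraries were made from left ventricles of adult male mice, 3 from UtyGT mice and 3 from WT mice, with 150000 sorted nuclei per library and 1 library of each group under each of the numbers 11, 15 and 31. UtyGT mice carry the gene trap UtyGt(XS0378)Wtsi, which places a splice acceptor and a stop codon in intron 4 of Uty, a chromosome Y relative of the histone demethylase gene Kdm6a. The trap was made in embryonic stem cells of 129P2/OlaHsd origin and bred onto C57BL/6J. WT mice were C57BL/6.Y<129P2>, so that both groups carry the chromosome Y of the same 129 substrain. How many animals gave a library, and on which day each number was prepared, is not in the labels. A p-value here thus rests on the scatter among libraries, part of which may be technical.

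In dividing cells PCM1 forms centriolar satellites, small granules that carry proteins to the centrosome. When muscle cells differentiate, the centrosome stops organising microtubules and several of its proteins, PCM1, pericentrin and the A-kinase anchoring protein AKAP9 among them, gather at the outer nuclear membrane. They are tethered there by AKAP6 and by a muscle form of the nesprin encoded by Syne1, while nesprins span to SUN proteins of the inner membrane, under which lies the lamina built from Lmna products. This ring of PCM1 is what the sort antibody binds, and PCM1 staining is used to tell cardiomyocyte nuclei from those of other heart cells.

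Sequence around start sites is shown for the 2 starts on which the description of levels turns, that of Akap6, whose RNA was the most abundant of the 8 per length, and the internal Syne1 start from which a short transcript is read. Of the 8 genes, 7 had a RefSeq window on GRCm38.p6 that runs 250 bases before to 50 bases after a start, 10 windows of 300 bases in all. Each is printed 5′ to 3′ on the gene's strand, with E-boxes, the sites that myogenic and other basic helix-loop-helix factors can bind, in capitals (CANNTG, which reads the same on both strands).
Akap6, chr12:52699133-52699432, plus strand: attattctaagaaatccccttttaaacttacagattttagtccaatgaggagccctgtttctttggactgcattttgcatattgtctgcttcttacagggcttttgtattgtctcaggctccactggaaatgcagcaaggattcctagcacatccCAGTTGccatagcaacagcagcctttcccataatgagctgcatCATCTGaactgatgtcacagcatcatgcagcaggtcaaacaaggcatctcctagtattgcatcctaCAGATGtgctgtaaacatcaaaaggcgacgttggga
Syne1 internal start, chr10:5069014-5069313, minus strand: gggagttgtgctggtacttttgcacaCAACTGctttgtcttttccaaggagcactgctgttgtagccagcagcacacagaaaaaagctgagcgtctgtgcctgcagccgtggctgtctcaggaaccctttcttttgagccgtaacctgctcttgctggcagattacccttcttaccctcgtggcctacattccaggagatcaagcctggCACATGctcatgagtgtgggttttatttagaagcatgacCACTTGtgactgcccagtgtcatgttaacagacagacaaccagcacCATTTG
The Akap6 window held 3 E-boxes and the internal Syne1 window 4, the highest counts of the 10 windows, of which the rest held 0 to 2. The mean over all RefSeq windows was 1.39. E-boxes stood in 7 of the 10 windows of the set, against 72.3% of the 32851 RefSeq windows of the same length. A simplified pattern for sites of the muscle factor MEF2 was searched on both strands, with fixed bases at its ends and any base at its centre. It was found in 0 of the 10 windows, against 3.69% of all windows. The pattern is not the full MEF2 consensus, so these values count the pattern and are not rates of MEF2 sites. A match is a description of the letters only.

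The libraries held between 19900137 and 22876369 gene reads in UtyGT and between 18204752 and 23252887 in WT. Uty served as the check of the labels, with 22.1, 14.1 and 19.9 normalised reads in UtyGT libraries 11, 15 and 31, against 1212, 1332 and 1314 in the WT libraries of those numbers. The log2 fold change of Uty was -6.05 (limma, adjusted p = 0.000113). It was the sole gene called between UtyGT and WT, which makes 0.00617% of the 16202 genes tested. With the numbers as a block, limma called 2 genes, Uty and its neighbour Ddx3y (log2 fold change -2.82, adjusted p = 0.029, against 1.00 without the block). The summed ventricular cardiomyocyte markers, 8 genes such as Myh6 and Ttn, lay between 1964000 and 2249000 normalised reads in UtyGT and between 1988000 and 2391000 in WT. Both number 15 libraries stood apart from the other 4 on the first principal component, which held 73.3% of the variance. The summed leukocyte markers, 10 genes such as Ptprc and Csf1r, had 898.1 normalised reads in UtyGT 15 and 2129 in WT 15, against between 11000 and 28190 in the other libraries.

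Between UtyGT and WT, 0 of the 8 genes passed the threshold, an adjusted p of 0.05, with limma, edgeR or DESeq2, and 0 had an unadjusted p under 0.05 in limma, against 195 (1.2%) of all genes tested. The log2 fold change was above 0 for 3 of the 8 and below 0 for 5, with a median of -0.03, against -0.01 over all genes tested. The median size of the change, sign left aside, was 0.06 on the log2 scale for the 8 genes and 0.10 for all genes. The 8 genes lay at or above the 69.8th percentile of level, while the tested genes reach down to a mean of 10. These medians thus compare genes of unlike level. The range of the UtyGT libraries overlapped that of the WT libraries for 8 of 8 genes, while 5.42% of all genes tested had groups that did not overlap. Without the number 15 libraries, in the deposited table of the other 4, the fold changes were 0.0913 for Pcm1, 0.0886 for Akap6, 0.0383 for Syne1 and -0.0431 for Lmna, each with the opposite sign, and 0 of the 8 genes were called. With the numbers as a block, 0 of the 8 and 399 of all genes tested had an unadjusted p under 0.05 in limma. The 95% intervals given with each gene come from the fit without the block, so their width includes scatter between numbers. Under that fit they bound the size of a difference that these libraries leave possible. They do not show that the levels were equal.

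**Figure D1:**
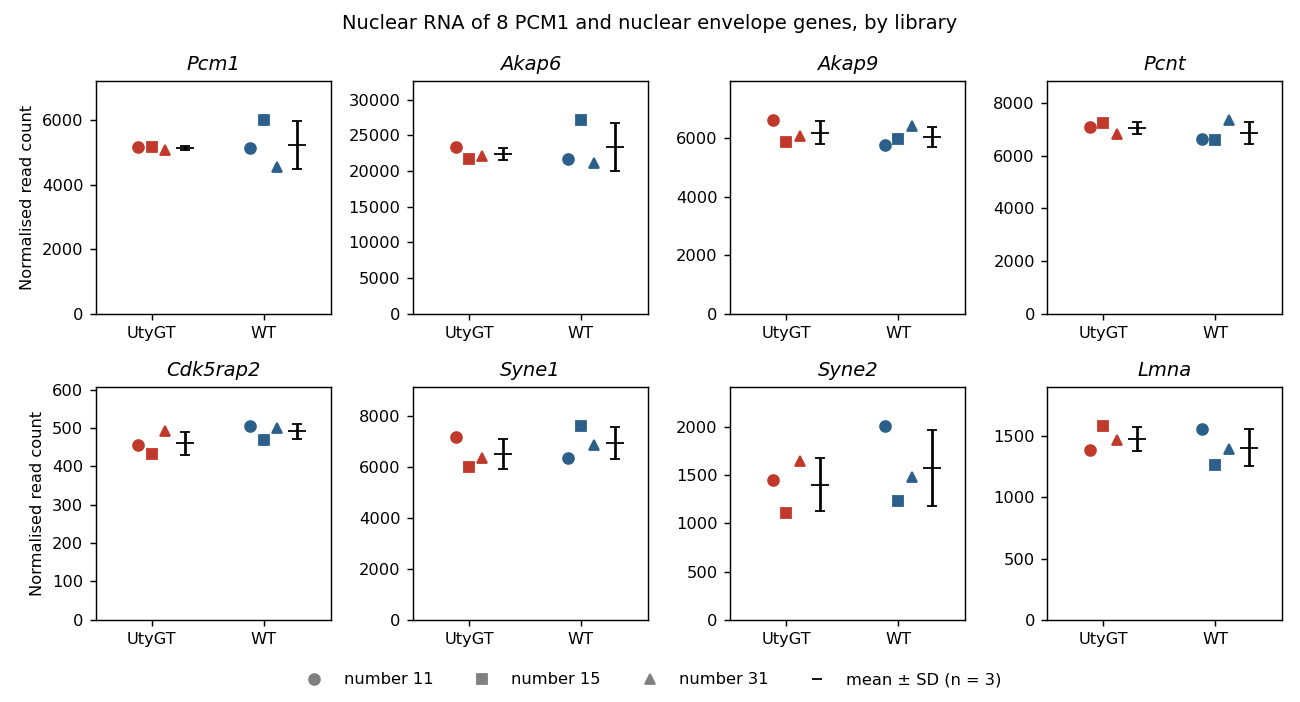
Normalised read count of each of the 8 genes by library, UtyGT in red and WT in blue, with the number 11, 15 or 31 as the marker shape and black bars for the mean ± SD of 3 libraries. The groups overlap for every gene, and the WT 15 library holds the highest value of Pcm1, Akap6 and Syne1.

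Pcm1 (ENSMUSG00000031592, GRCm38 chromosome 8, 41239752 to 41332344, plus strand), the gene of the sort antigen, had 5177, 5148 and 5073 normalised reads in UtyGT libraries 11, 15 and 31, against 5141, 6004 and 4536 in the WT libraries of those numbers. The UtyGT values lay close together, all inside the WT range, whose highest and lowest libraries were WT 15 and WT 31. The coefficient of variation was 1.05% in UtyGT and 14.1% in WT, a difference in spread that was not tested. Pcm1 averaged 5133 ± 53.9 in UtyGT and 5227 ± 738 in WT (SD, n = 3 each), a log2 fold change of -0.02 (SE 0.11, limma adjusted p = 1.00). The 95% interval ran from a fall of 17.2% to a rise of 18.0%. Within pairs of equal number, the log2 ratio of UtyGT to WT was 0.01 in 11, -0.22 in 15 and 0.16 in 31. These values are RNA levels of nuclei that had already passed a gate on the protein, and the protein itself was not measured in the files.

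Akap6 (ENSMUSG00000061603, chromosome 12, 52699383 to 53155599, plus strand) encodes the large anchoring protein that holds protein kinase A and other signalling enzymes at the nuclear envelope of muscle cells. Its start is the first sequence printed above. Akap6 had 23335, 21726 and 22036 normalised reads in UtyGT libraries 11, 15 and 31, against 21679, 27179 and 21138 in the WT libraries. As with Pcm1, WT 15 stood above the other 5 libraries, which spanned 21138 to 23335. Akap6 averaged 22370 ± 854 in UtyGT and 23330 ± 3340 in WT, with a log2 fold change of -0.05 (SE 0.12, limma adjusted p = 1.00). The interval ran from a fall of 20.4% to a rise of 16.8%. Without WT 15 the fold changes of both genes lay above 0, at 0.09 for Pcm1 and 0.06 for Akap6, and neither was called.

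Akap9 (ENSMUSG00000040407, chromosome 5, 3928054 to 4081310, plus strand) encodes a scaffold of the centrosome and the Golgi that anchors protein kinase A and, in the heart, the KCNQ1 potassium channel. Akap9 had 6631, 5868 and 6088 normalised reads in UtyGT, against 5765, 5969 and 6434 in WT, for numbers 11, 15 and 31. The log2 fold change was 0.03 (SE 0.08, limma adjusted p = 1.00), with an interval from a fall of 10.5% to a rise of 16.9%. Pcnt (ENSMUSG00000001151, chromosome 10, 76351263 to 76442786, minus strand), the gene of pericentrin, a scaffold of the pericentriolar material, had 7104, 7265 and 6821 in UtyGT, against 6625, 6603 and 7368 in WT. Its fold change was 0.04 (SE 0.08, limma adjusted p = 1.00), between a fall of 9.11% and a rise of 16.7%. The number 11 libraries were the highest and the lowest for Akap9, UtyGT above WT, whereas for Pcnt both ends of the range were WT libraries, with WT 31 highest and WT 15 lowest.

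Cdk5rap2 (ENSMUSG00000039298, chromosome 4, 70216856 to 70410443, minus strand) encodes a centrosomal protein that recruits and activates the gamma-tubulin ring complex. It had 454, 433 and 493 normalised reads in UtyGT, against 505, 469 and 500 in WT, for numbers 11, 15 and 31. It was lower in UtyGT in all 3 pairs of equal number, by log2 differences of -0.15, -0.12 and -0.02. The share of all genes with the same sign in all 3 pairs was not counted. The means were 460.3 ± 30.6 in UtyGT and 491.6 ± 19.7 in WT. The log2 fold change of -0.10 (SE 0.09) did not pass the test (limma adjusted p = 1.00), and its interval ran from a fall of 19.5% to a rise of 8.72%.

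**Figure D2:**
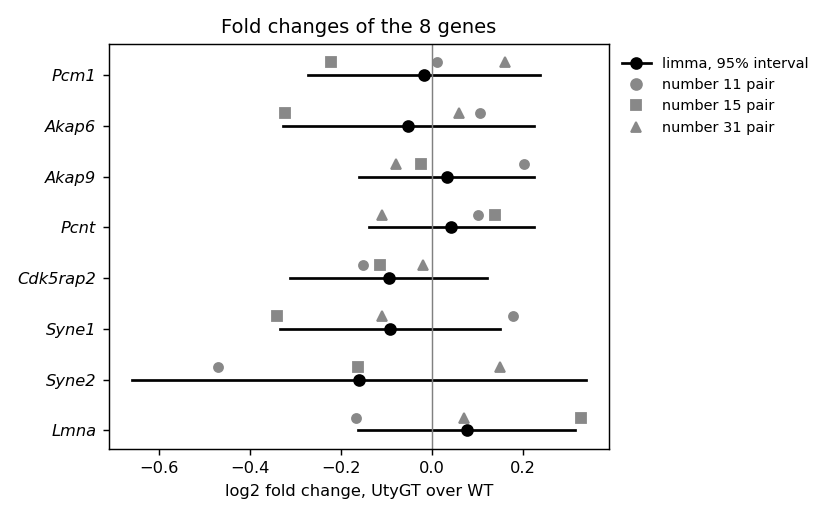
Log2 fold change of each gene, UtyGT over WT, as the limma estimate with its 95% interval (black), and the log2 ratio within each pair of equal number (grey). All 8 intervals include 0, and Syne2 has the widest, from -0.66 to 0.34.

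Syne1 (ENSMUSG00000096054, chromosome 10, 5020917 to 5551482, minus strand) and Syne2 (ENSMUSG00000063450, chromosome 12, 75818134 to 76110926, plus strand) encode the giant nesprins of the outer nuclear membrane, which link the nucleus to actin, to microtubule motors and to the anchoring proteins named above. Syne1 had 7194, 6016 and 6353 normalised reads in UtyGT, against 6365, 7625 and 6861 in WT, for numbers 11, 15 and 31. Syne2 had 1449, 1105 and 1645 in UtyGT, against 2010, 1236 and 1482 in WT. The log2 fold changes were -0.09 (SE 0.10) for Syne1 and -0.16 (SE 0.21) for Syne2, and neither passed the test (limma adjusted p = 1.00 for each). The interval of Syne2, from a fall of 36.8% to a rise of 26.5%, was the widest of the 8, and that of Syne1 ran from -0.33 to 0.15 on the log2 scale. The fold change of Syne2 moved with single libraries, to 0.03 without WT 11, -0.000532 without UtyGT 15 and -0.32 without WT 15, and was called in none of these fits.

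Lmna (ENSMUSG00000028063, chromosome 3, 88480147 to 88509956, minus strand) encodes lamins A and C, the intermediate filaments of the lamina whose mutations cause dilated cardiomyopathy in humans. It had 1388, 1582 and 1465 normalised reads in UtyGT, against 1558, 1261 and 1396 in WT, for numbers 11, 15 and 31. Here WT 15 was the lowest library, where it had been the highest for Pcm1, Akap6 and Syne1. Lmna averaged 1478 ± 97.8 in UtyGT and 1405 ± 149 in WT, a log2 fold change of 0.08 (SE 0.10, limma adjusted p = 1.00). The interval ran from a fall of 10.6% to a rise of 24.4%. The fold change was 0.00136 without WT 15 and 0.0267 without UtyGT 15.

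The order of the 8 genes by level was described per kilobase of annotated exon, since a long gene collects more reads at the same number of molecules. Whether the authors counted reads over exons alone or over whole gene bodies is not given in the sources used here, and counting over bodies would add intronic reads, so this order holds for these counts over exon length and not for molecules. Akap6 came first at 1539 normalised reads per kb (1424 to 1830 over the 6 libraries), in the 98.7th percentile of the tested genes that have an exon length. Pcm1 followed at 694.5 (608.2 to 805.1), and Pcnt at 573.0 (543.2 to 606.2), in the 96.5th and 95.7th percentiles of the same genes. Akap9 stood at 286.9, Lmna at 246.9 and Syne1 at 166.4 normalised reads per kb, while Syne2 at 55.66 and Cdk5rap2 at 36.58 closed the order. Of the 7 pairs of neighbours in it, only Akap9 and Lmna had overlapping ranges, from 270.0 to 310.6 for Akap9 and from 215.9 to 271.0 for Lmna, and Akap9 was the higher of the pair in 6 of 6 libraries. Pcm1 and Pcnt were separated by a narrow gap, with the lowest Pcm1 library at 608.2 and the highest Pcnt library at 606.2.

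**Figure D3:**
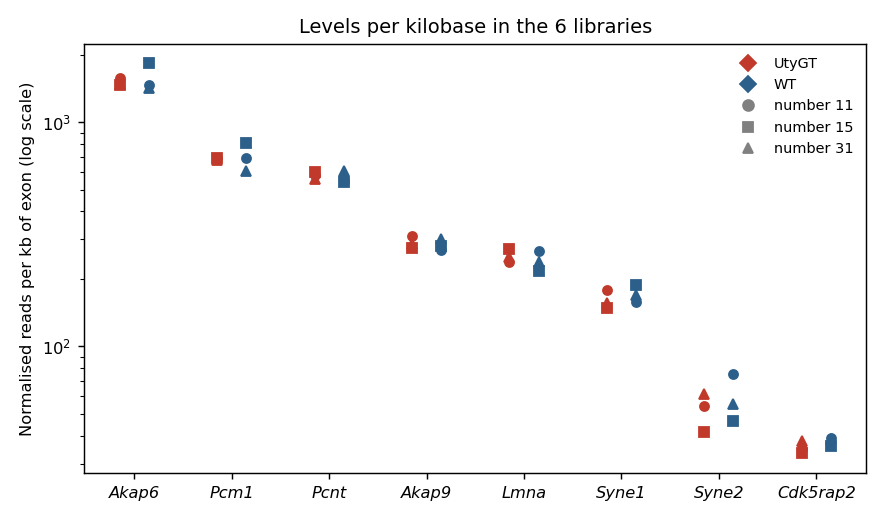
Normalised reads per kilobase of exon on a log axis for the 8 genes, ordered by their mean, with UtyGT in red left of WT in blue and the number as the marker shape. Akap6 lies between 1424 and 1830 in the 6 libraries and Cdk5rap2 between 33.28 and 38.84.

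The place of Syne1 in that order depends on the length chosen. Its exons merge to 40491 bases, and transcript Syne1-205 alone has 146 exons and 27908 bases. Transcript Syne1-202, which begins at the internal start printed above, has 17 exons and 3443 bases. The mean Syne1 count would be 241.4 normalised reads per kb over Syne1-205 and 1956 per kb over Syne1-202. The latter lies above the value of Akap6, but only if all Syne1 reads came from Syne1-202, and Akap6 kept its merged exon length. Counts per gene do not tell which transcript the reads came from. Gm10097, an annotated gene on the opposite strand whose body (chromosome 10, 5069192 to 5071975) begins 129 bases from that internal start, had 184, 251 and 156 reads in UtyGT and 236, 295 and 147 in WT, the most in the number 15 library of each group.

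Some annotated genes share exon bases with the 8. Cyp51, on the opposite strand, shares 166 exon bases with Akap9 and had 193, 177 and 187 reads in UtyGT, against 196, 237 and 122 in WT. 1700094J05Rik, which shares 379 bases with Pcnt from the opposite strand, had at most 7 reads in a library, and Ywhaq-ps3, which shares 365 bases with Cdk5rap2, at most 1. AC141477.1, which shares 115 exon bases with Pcnt on the same strand, was not analysed here. The pseudogene Wdr46-ps, within Akap9 on the same strand but with 0 shared exon bases, had 186, 157 and 161 reads in UtyGT and 158, 170 and 196 in WT. Whether the authors counted by strand is not given in the sources used here, so reads in shared bases cannot be assigned to a strand.

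Between the numbers 11, 15 and 31, 0 of the 8 genes were called by the limma F test, against 776 (4.79%) of all genes tested. Syne2 was the one with an unadjusted p under 0.05, a level that 1550 genes (9.57%) reached. The limma adjusted p of Syne2 was 0.286, and between 0.212 and 0.533 over the alternatives. Its log2 level in number 15 differed by -0.55 from that in number 11, and that in number 31 by -0.13. Syne2 was also the sole gene of the set for which both number 15 libraries, at 1105 in UtyGT and 1236 in WT, lay below the other 4, which had 1449 to 2010. The share of all genes tested with number 15 below the rest was not counted, so this is not shown to be particular to Syne2. Its highest library was 1.82 times its lowest, against 1.12 to 1.32 times for the other 7 genes.

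The 6 libraries had the same order by Syne2 as by the summed leukocyte markers. Both were lowest in the number 15 libraries, which fixes part of that order, and other genes with the same order were not counted. From high to low, the leukocyte sums were 28190 in WT 11, 21580 in UtyGT 31, 21340 in WT 31, 11000 in UtyGT 11, 2129 in WT 15 and 898.1 in UtyGT 15. In the number 15 libraries 10 of 10 leukocyte markers lay below the other 4 libraries, and 6 of 8 cycling-cell markers did, with sums of 54.48 to 90.31 against 296.7 to 916.9. The fibroblast sums were 845.9, 856.7 and 2399 in UtyGT and 3780, 763 and 1542 in WT for numbers 11, 15 and 31, with 4 of 8 genes below the other libraries in number 15. The part of these cell types in the level of Syne2 was not tested. In such bulk libraries fewer cells of a type and less RNA per cell cannot be told apart. The endothelial sums lay between 975.3 and 1054 in UtyGT and between 807.1 and 1847 in WT, the mural sums between 1524 and 1649 in UtyGT and between 1563 and 1864 in WT. The atrial sums lay between 689.1 and 1288 in UtyGT and between 1151 and 3337 in WT, and the erythroid sums between 514.8 and 996.3 in UtyGT and between 625.6 and 1256 in WT.

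**Figure D4:**
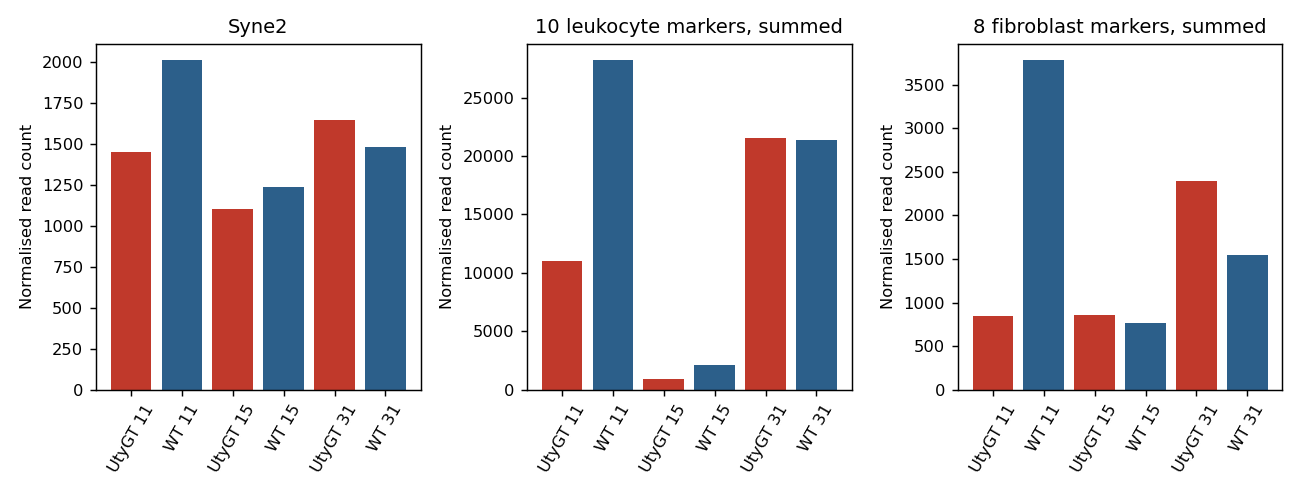
Normalised read count of Syne2 (left), of 10 leukocyte markers summed (middle) and of 8 fibroblast markers summed (right) in each library, UtyGT in red and WT in blue, with the numbers in order. Syne2 and the leukocyte sum are both highest in WT 11 and lowest in UtyGT 15.

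How the 8 genes varied together over the 6 libraries is a description over few points that share 2 groups and 3 numbers. Pcm1 and Akap6 had the highest correlation of the 28 pairs (Pearson's r = 0.90 on log2 values, 6 libraries), both with WT 15 on top. Cdk5rap2 and Syne2 came next with an r of 0.83, both highest in WT 11 and lowest in UtyGT 15. Syne1 and Lmna ran opposite to each other, with an r of -0.955, as did Akap6 and Lmna with -0.794. The nesprin genes Syne1 and Syne2 did not vary together, with an r of -0.154. The ratio of Akap6 to Pcm1 reads stayed between 4.22 and 4.51 in UtyGT and between 4.22 and 4.66 in WT, whereas that of Syne1 to Syne2 reads ranged from 3.86 to 5.45 in UtyGT and from 3.17 to 6.17 in WT.

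The 5 genes whose log2 values were most like those of Pcm1 over the 6 libraries, among 10357 genes with a mean of at least 100, were St5, Cfap20, Pfn2, Cxadr and Anapc13, with r between 0.990 and 0.998. St5 had 1301, 1310 and 1267 normalised reads in UtyGT libraries 11, 15 and 31, against 1296, 1528 and 1140 in WT. Cxadr, the gene of a cell adhesion receptor of the intercalated disc, had 2751, 2755 and 2631 in UtyGT, against 2636, 3222 and 2319 in WT. Both had the narrow UtyGT values and the high WT 15 and low WT 31 of Pcm1, which their selection by likeness to Pcm1 fixed in advance. The 5 genes are the best matches of 10357, so their high r reflects the selection. These values of r rest on 6 libraries and carry no statement about function.

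Genes that work with these proteins were taken as 8 lists of 144 genes, of which 140 were measured. Of the 140, 0 rose and 0 fell between UtyGT and WT at the threshold, against 0.00617% of all genes tested that were called. Between numbers, 0 of the 140 were called, against 776 (4.79%) of all genes tested. The lamina and inner membrane list had log2 fold changes above 0 for 12 of 17 measured genes (median 0.01), and the list of nuclear pore genes for 17 of 29 (median 0.01). The list of SUN and torsin partners of nesprins had 5 of 8 above 0 with a median of 0.05, and the list of centriolar satellite genes, the company of PCM1 in dividing cells, 4 of 15 with a median of -0.05. The AKAP6 binding partners had 10 of 16 above 0 with a median of 0.03, the gamma-tubulin and pericentriolar anchoring genes 13 of 28 with a median of -0.05, the centriole duplication genes 8 of 14 with a median of 0.02, and the dynein and kinesin motors 5 of 13 with a median of -0.01. The median over all genes tested was -0.01, with 7869 of 16202 genes above 0.

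**Figure D5:**
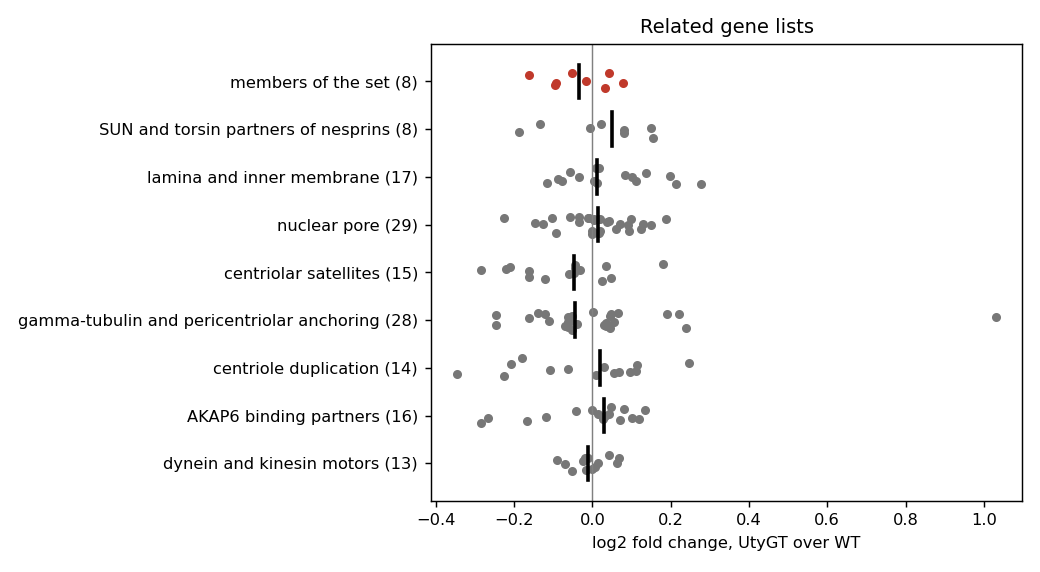
Log2 fold change, UtyGT over WT, of every measured gene of the 8-gene set (red) and of the 8 related lists (grey), with the number measured in brackets and a black bar at each list's median. The medians lie between -0.05 and 0.05, and the point at 1.03 is Camsap3.

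In the nuclear envelope lists, Sun2, whose protein binds nesprins across the perinuclear space, averaged 3937 ± 221 normalised reads in UtyGT and 3544 ± 311 in WT (log2 fold change 0.15, SE 0.09), the highest mean and the highest fold change of its list. Tor1a, a torsin ATPase of that space, had the lowest, with 205.6 ± 35.5 in UtyGT and 232.1 ± 8.63 in WT (-0.19, SE 0.15). Tmem38a, a potassium channel of the sarcoplasmic reticulum and nuclear membrane, had 5626 ± 159 in UtyGT and 5323 ± 382 in WT (0.08, SE 0.08). Lmnb1, the gene of lamin B1, had the highest fold change of the lamina list (0.28, SE 0.20), with 193.8 ± 30.4 in UtyGT and 160.8 ± 32.6 in WT, and Emd, the gene of emerin, the lowest (-0.12, SE 0.16). Among pore genes Ranbp2, of the cytoplasmic filaments, was the most abundant at 6003 ± 364 in UtyGT and 5944 ± 491 in WT (0.02, SE 0.09), and fold changes ran between -0.23 for Nup37 and 0.19 for Nup210. None of these genes passed the test, and limma's adjusted p was 1.00 for each.

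Among the centrosome lists Pde4dip, a myomegalin gene that is a paralog of Cdk5rap2, stood out by level. It averaged 94420 ± 10300 normalised reads in UtyGT and 90790 ± 9270 in WT (log2 fold change 0.06, SE 0.14), which is 5494 normalised reads per kb of exon over the 6 libraries against 36.58 for Cdk5rap2. Hook3, a dynein adaptor that binds PCM1, had 2953 ± 87.0 in UtyGT and 2904 ± 114 in WT (0.02, SE 0.07). Fold changes of the satellite list ran between -0.29 for Bbs4 and 0.18 for Ccdc14. In the duplication list Cenpj was lowest, with 122.6 ± 13.8 in UtyGT and 155.9 ± 15.2 in WT (-0.35, SE 0.15), Cntrob was highest (0.25, SE 0.12), and Cep120 was the most abundant (-0.06, SE 0.11). Tubgcp5, a gamma-tubulin complex gene, was the lowest of the anchoring list (-0.25, SE 0.14). Camsap3, whose protein caps the minus ends of microtubules that do not start at a centrosome, was the one of 140 listed genes with an unadjusted p under 0.05, a level that 1.2% of all genes tested reached, and its limma adjusted p was 1.00. It had 36.8, 31.9 and 23.0 normalised reads in UtyGT libraries 11, 15 and 31, against 12.2, 16.6 and 14.1 in WT, groups that did not overlap, as in 5.42% of all genes tested, with a log2 fold change of 1.03 (95% interval 0.29 to 1.77).

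Of the genes whose proteins bind AKAP6, the transcription factor gene Mef2d was the most abundant, with 4118 ± 540 normalised reads in UtyGT and 3919 ± 507 in WT (log2 fold change 0.07, SE 0.13). Rps6ka2, a ribosomal S6 kinase gene, had the highest fold change (0.13, SE 0.14), and Plce1, the gene of phospholipase C epsilon, the lowest (-0.29, SE 0.23). The dynein heavy chain gene Dync1h1 had 11550 ± 779 in UtyGT and 11060 ± 701 in WT (0.06, SE 0.09). Its list had the narrowest range of the 8, between -0.09 for Klc4, a kinesin light chain gene, and 0.07 for Pafah1b1, a dynein regulator.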

How the data were processed

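Nuclear RNA of PCM1-sorted cardiomyocyte nuclei was sequenced in 3 UtyGT and 3 WT libraries, prepared with a stranded low-input total RNA kit. Per the labels, the authors' processing used CASAVA 1.4 for base calls, STAR 2.5.1b for alignment (build GRCm38), featureCounts 1.6.0 for counting and DESeq2 1.22.2 for normalisation and testing. The deposited values used here are a signal in normalised reads, that is, reads per gene over the library's own size factor, with no scaling by gene length. Whole reads were recovered from the steps of these values, which were whole for 100% of values in each library (tolerance 0.0001 reads). Amplified reads are not independent molecules. The authors' own fold changes and p-values, deposited beside these values, were not used. A second deposited table, normalised on its own, holds the 4 libraries of numbers 11 and 31 and served as an alternative.

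The groups, UtyGT over WT, were tested with limma-trend (R 4.3.3, limma 3.58.1) on log2(normalised reads + 1), over genes with a mean of at least 10, two-sided, with Benjamini-Hochberg adjustment over all genes tested and a threshold of 0.05. Fold changes are on that log2 scale. An F test with group as covariate compared the numbers 11, 15 and 31. The main test stayed on the log scale, with edgeR 4.0.16 and DESeq2 1.42.0 on recovered reads as alternatives, beside other pseudocounts, filters and scalings, leaving out each library, and the number as a block. The group tests were also run on simulated counts. These held no difference shared by the libraries of a number, so that run does not bear on the scatter between numbers.

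Deviations from the group means correlated across genes by 0.252, 0.805 and 0.413 for the UtyGT and WT libraries of numbers 11, 15 and 31. The numbers were therefore taken as pairs in the pair ratios and in the block alternatives. The main test was not paired, and the SE, interval and adjusted p of each gene come from it. UtyGT 31 with WT 11 reached 0.729 and UtyGT 11 with WT 31 0.406, so the pairing is uncertain. Exon lengths and overlaps came from the GENCODE annotation of GRCm38, start windows from RefSeq. Named were the 8 genes, Uty, genes overlapping a member, the 5 genes most like Pcm1, and in each list the most abundant gene, those with the highest and lowest fold change and any called gene. Ddx3y was named after its values were seen. The members and lists were chosen with earlier results of these data known.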

Additional observations from a re-analysis of the deposited data

How the results depend on the processing

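The 8 genes gave 144 log2 fold changes over 18 alternatives, of which 135 kept the direction and 9 changed sign. Of these, 0 passed the threshold in any, with a lowest adjusted p of 0.851 (limma, edgeR or DESeq2). The limma fits with another filter or with the block return the main fold change by construction, and other pseudocounts hardly moved it. The filter and block fits could not change a sign, so the count of 135 overstates how far the direction was tested. The changes of sign were those of Pcm1 (0.0879) and Akap6 (0.0625) without WT 15, of Akap9 without UtyGT 11 (-0.0174) and without WT 11 (-0.0022), of Syne2 without WT 11 (0.0287), and, in the table of numbers 11 and 31, of Pcm1 (0.0913), Akap6 (0.0886), Syne1 (0.0383) and Lmna (-0.0431). Leaving out each library in turn gave -0.11 to 0.0879 for Pcm1, -0.12 to 0.0625 for Akap6, -0.0174 to 0.077 for Akap9, 0.02 to 0.09 for Pcnt, -0.15 to -0.05 for Cdk5rap2, -0.17 to -0.02 for Syne1, -0.32 to 0.0287 for Syne2 and 0.00 to 0.15 for Lmna. With the replicate block for paired numbers, limma called 2 genes (Uty and Ddx3y) between UtyGT and WT in place of 1, DESeq2 called 2 without the block and 4 with it, and leaving out 1 library gave 1 to 2. The block changed no call among the 8 genes or the 140 listed genes. Between numbers, 776 of 16202 genes were called, against 318 of 10358 with a mean of at least 100 and 544 of 29351 with no filter. The cause of these and the other shifts was not tested.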
